A study of Mus musculus with 6 samples.

Results

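The 43 genes described here form the tumour necrosis factor (TNF) ligand and receptor superfamily, out of 29322 genes in the authors' deposited table of a bulk RNA-seq comparison of mouse lung mesenchyme. They were taken by symbol, as every gene whose name begins with Tnfsf or Tnfrsf together with Tnf, Lta, Ltb, Ltbr, Fas, Fasl, Cd40, Cd27, Cd70 and Eda2r, with no filter on expression. By their known roles, 17 of them are ligands, 25 are receptors and 1, Tnfsf13os, is a noncoding transcript antisense to a ligand gene. The libraries came from 3 adult Yeti+/- mice, titled Yeti, and 3 adult wild-type mice, titled Yeti controls, and are called Yeti and WT below. The Yeti allele is labelled as a gain of function of interferon-gamma (IFN-γ), and all 6 samples carry the label of a tamoxifen injection with no allele named for it to act on. The sort from lung kept cells without CD45 (leukocytes), CD31 (endothelium) or Epcam (epithelium) on their surface and without DAPI, a dye that marks dead cells, while the extraction protocol speaks of cultured cells. Nothing in the labels gives the age in weeks, the sex or whether animals were pooled, so p-values measure the spread between these samples.

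TNF superfamily ligands are mostly trimeric proteins on the cell surface, some of them shed, that cluster receptors on the same or a neighbouring cell. Receptors with a death domain, such as TNF receptor 1, Fas and the receptor for TRAIL, can start apoptosis or necroptosis, whereas most others recruit TRAF adaptor proteins and switch on NF-kappa B. In lung, stromal cells carry TNF and lymphotoxin receptors and are a source of the B cell survival factor BAFF, while many of the costimulatory members belong to lymphocytes.

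Of the 43 members, 3 passed the test, the ligand genes Tnfsf10 (TRAIL) and Tnfsf13b (BAFF) as higher in Yeti and the receptor gene Tnfrsf17 (BCMA) as lower. The test is the authors' DESeq2 Wald test in the authors' deposited table, called at an adjusted p under 0.05 with Benjamini-Hochberg adjustment over the 20212 genes that have an adjusted p in that table. Of the 41 members with an adjusted p, 2 were called higher and 1 lower, 7.32% in all, where 2.84% of all 20212 genes tested were called, 1.85% as higher and 0.994% as lower. At an unadjusted p under 0.05, 9 members had positive and 2 had negative fold changes in the authors' deposited table, and 9.28% of all genes tested had such a p. Fold changes were above 0 in 27 and below 0 in 14 of the 41 members, and above 0 in 49.8% of all genes tested. The median log2 fold change of the members was 0.21, and that of all genes tested was -0.00092. Tnfsf4 and Cd70, with means of 4.22 and 1.202 normalized reads in the authors' deposited table, lie under the mean of 10 below which a gene is marked as low, and neither has an adjusted p. In bulk libraries, fewer cells of a type and less RNA per cell cannot be told apart.

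**Figure D1:**
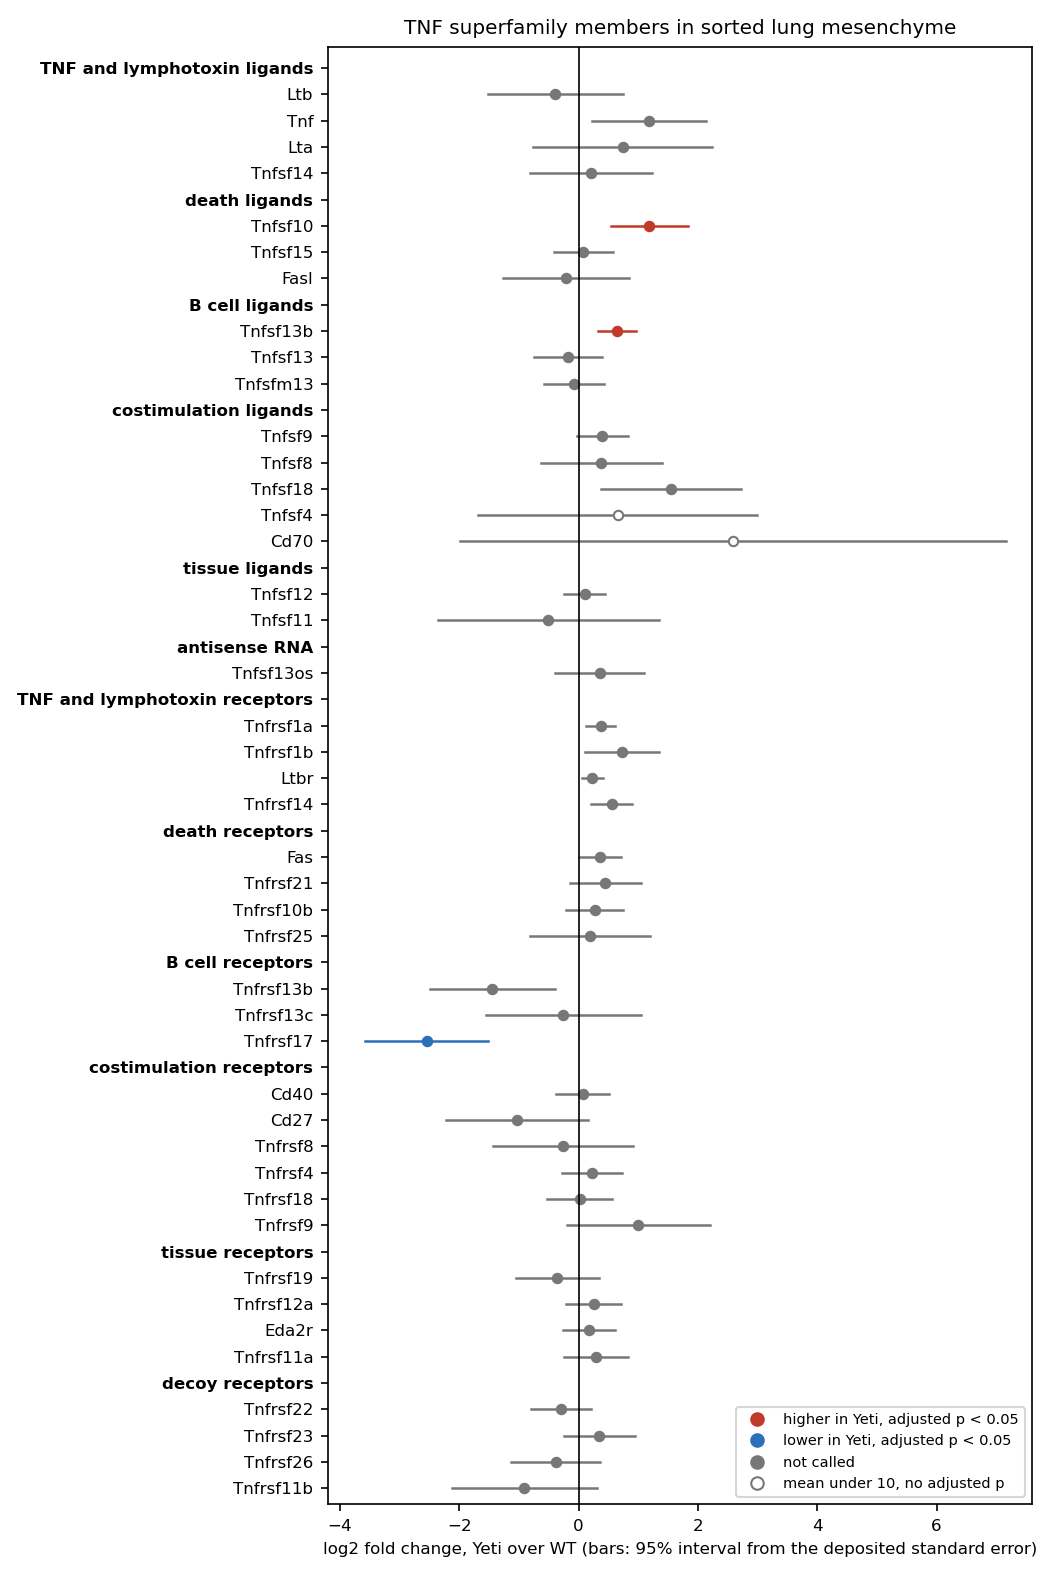
Log2 fold change, Yeti over WT, of the 43 members from the authors' deposited table (x axis), grouped by role with the most abundant member of each group on top; bars are 95% intervals from the deposited standard error. Tnfsf10 and Tnfsf13b lie right of 0 and Tnfrsf17 left of it, and the intervals of the 4 TNF and lymphotoxin receptors all lie right of 0.

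The deposited table holds no values per library, but its means, fold changes and standard errors are fixed by the reads of 6 libraries and could be solved for them where reads are few. The size factors so obtained ran from 0.946 to 1.002 in Yeti and from 0.952 to 1.09 in WT libraries, and the deposited means sum to 26646632 normalized reads, the average depth of a library. For 29 members with means up to 272, exactly 1 set of 6 whole-read counts gave the deposited values, and these reads, divided by the size factor, are given as normalized reads. For the other 14 members, 5 had several such sets and 9 were too abundant to search, and these are described by fitted group levels, which follow from the deposited mean and fold change. The replicate number of each rebuilt library is unknown, so libraries are lettered A to C within a group in order of decreasing size factor. In 27 members with rebuilt reads and a mean of at least 10, every Yeti library was above every WT library in 3 and below in 1, which is 11.1% and 3.70%. Over 771 genes of the same range, taken as every 10th gene of the table with exactly 1 solution, these shares were 5.19% and 7.78%.

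The promoters of the 3 called members are shown with 2 kinds of short element near gene starts, one known from interferon responses and the other from NF-kappa B. The windows run from 250 bases before to 50 bases after the start and come from RefSeq on build GRCm38.p6, where 33 of the 43 members were matched. Capitals mark matches, on either strand, to the interferon-stimulated element core bound by IRF factors (GAAA, any 2 bases, GAAA) and to the kappa B core (GGG, any 5 bases, CC), and 1 base can belong to several matches.
Tnfsf10, chr3:27316827-27317126, plus strand: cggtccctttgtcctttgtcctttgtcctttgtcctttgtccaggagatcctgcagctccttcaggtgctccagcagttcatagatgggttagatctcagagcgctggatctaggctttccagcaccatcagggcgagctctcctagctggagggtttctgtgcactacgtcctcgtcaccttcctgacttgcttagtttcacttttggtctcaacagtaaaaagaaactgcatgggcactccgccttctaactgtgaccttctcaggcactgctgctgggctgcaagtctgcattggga
Tnfsf13b, chr8:10006383-10006682, plus strand: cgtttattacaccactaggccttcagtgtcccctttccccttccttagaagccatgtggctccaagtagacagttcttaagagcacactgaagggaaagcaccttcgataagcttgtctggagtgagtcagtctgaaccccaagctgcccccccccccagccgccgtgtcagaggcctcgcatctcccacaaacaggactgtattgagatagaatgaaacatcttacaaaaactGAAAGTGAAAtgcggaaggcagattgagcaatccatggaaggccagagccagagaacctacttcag
Tnfrsf17, chr16:11313559-11313858, plus strand: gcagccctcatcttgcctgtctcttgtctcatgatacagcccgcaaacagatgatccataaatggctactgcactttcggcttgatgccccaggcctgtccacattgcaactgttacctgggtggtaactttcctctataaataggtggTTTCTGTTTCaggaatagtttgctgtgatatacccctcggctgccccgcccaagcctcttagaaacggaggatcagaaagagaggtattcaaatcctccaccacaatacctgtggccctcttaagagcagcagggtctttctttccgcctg
The Tnfsf10 window held neither motif. Tnfsf13b held GAAAGTGAAA at position -16 from the start, and a second annotated Tnfsf13b start, chr8:10006217-10006516, held no match. Tnfrsf17, the member that fell, held the same core in the other orientation, TTTCTGTTTC, at position -101. Among the 37 windows of the matched members, the interferon-stimulated core was found in 4, those of Tnfsf13b, Tnfrsf17, Tnfrsf14 and Tnfrsf1b, which is 10.8%, beside 3.44% of all 32851 windows of the table. The kappa B core was found in 23 windows of the members (62.2%), none of them of a called member, and in 50.8% of all windows. A match is a description of these letters and no measure of binding.

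Tnfsf10 encodes TRAIL, a ligand that can kill cells through death receptors and is known as an interferon-induced gene (ENSMUSG00000039304, GRCm38 chromosome 3, 27317028 to 27342427, plus strand). Its normalized reads were 465, 345 and 324 in Yeti A, B and C, against 100, 219 and 179 in WT A, B and C. Every Yeti library was above every WT library, and Yeti A and WT A were the farthest apart. Tnfsf10 rose by 1.19 ± 0.33 log2 units (SE) in the authors' deposited table (2.28-fold), at an adjusted p of 0.0148 in the authors' DESeq2 test. With the dispersion held, leaving out Yeti A gave 1.01 with an unadjusted p of 0.00599 and leaving out WT A gave 0.93 with an unadjusted p of 0.0118, both above the largest unadjusted p that passed, 0.00142. The 4 other omissions kept Tnfsf10 past that limit, with log2 fold changes from 1.24 to 1.44.

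The remaining death ligands and receptors did not pass the test. Tnfrsf10b, the mouse receptor through which TRAIL kills, had 143, 164 and 153 normalized reads in Yeti and 161, 102 and 119 in WT, so the groups overlapped. Its log2 fold change was 0.27 ± 0.24 in the authors' deposited table, adjusted p = 0.983 in the authors' DESeq2 test. Fas, the receptor of Fas ligand and a known p53 target, is the most abundant member of this group. Fas had fitted levels of 1191 normalized reads in Yeti and 925 in WT, with a log2 fold change of 0.36 ± 0.18 in the authors' deposited table, adjusted p = 0.476 in the authors' DESeq2 test (unadjusted p = 0.0400). Fasl, the ligand of Fas and a gene of cytotoxic lymphocytes, had 14.0, 11.05 and 29.6 normalized reads in Yeti and 16.5, 27.5 and 18.9 in WT. These few reads overlapped between the groups, and the 95% interval of the log2 fold change, -1.26 to 0.84 from the authors' deposited table, takes in changes of more than 1 unit. Tnfsf15 (TL1A), a ligand made by endothelial and myeloid cells, varied little among libraries, with 71.8, 61.3 and 79.3 normalized reads in Yeti and 62.5, 61.7 and 76.7 in WT. Its receptor gene Tnfrsf25 (DR3) had 56.9, 66.3 and 164 normalized reads in Yeti and 114, 90.2 and 47.3 in WT, Yeti C being the highest. Tnfrsf21 (DR6), a death-domain receptor, had a log2 fold change of 0.45 ± 0.30 in the authors' deposited table. All 4 death receptors thus had positive fold changes in the authors' deposited table, between 0.19 and 0.45, and 0 of 4 were called; only Fas reached an unadjusted p under 0.05.

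Tnfsf13b encodes BAFF, a survival factor for B cells, and had the highest mean of the ligand genes (ENSMUSG00000031497, GRCm38 chromosome 8, 10006467 to 10039072, plus strand). The fitted level of Tnfsf13b was 4877 normalized reads in Yeti and 3131 in WT. Tnfsf13b rose by 0.64 ± 0.16 log2 units in the authors' deposited table (1.56-fold), at an adjusted p of 0.00512 in the authors' DESeq2 test. The deposited standard error corresponds to a fitted coefficient of variation between libraries of 13.7%, against 27.2% for Tnfsf10 and 43.7% for Tnfrsf17. Such a value is shared by both groups, leaves out the sampling of reads and can differ from the spread of the rebuilt reads. The second B cell ligand, Tnfsf13 (APRIL), had 94.8, 67.3 and 71.9 normalized reads in Yeti and 111, 79.8 and 72.5 in WT, which overlap, and a log2 fold change of -0.17 ± 0.29 in the authors' deposited table. Tnfsfm13, annotated across both Tnfsf12 and Tnfsf13 on chromosome 11, had 60.9, 60.2 and 56.1 normalized reads in Yeti and 59.8, 55.1 and 72.5 in WT. Tnfsf13os, on the opposite strand there, had 34.9, 22.1 and 29.6 normalized reads in Yeti and 25.7, 20.9 and 21.01 in WT. Because Tnfsf12, Tnfsf13, Tnfsfm13 and Tnfsf13os overlap and the strand setting of the counting is not given in the sources used here, their reads cannot be fully told apart.

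The 3 receptor genes of BAFF and APRIL all had negative fold changes in the authors' deposited table, and 1 of them, Tnfrsf17, was called. Tnfrsf17 encodes BCMA, a receptor of plasma cells (ENSMUSG00000022496, GRCm38 chromosome 16, 11313812 to 11320074, plus strand). Its normalized reads were 25.9, 101 and 88.8 in Yeti A, B and C, against 233, 596 and 428 in WT A, B and C. All 3 Yeti libraries lay below all 3 WT libraries, and the A library was the lowest of each group. Tnfrsf17 fell by 2.54 ± 0.53 log2 units in the authors' deposited table, at an adjusted p of 0.000148 in the authors' DESeq2 test. Each single library could be left out with the dispersion held, at log2 fold changes from -2.87 to -2.14 and unadjusted p up to 0.000267, without crossing the limit of 0.00142. Tnfrsf13b, which encodes TACI, a receptor shared by BAFF and APRIL, had fitted levels of 347 normalized reads in Yeti and 944 in WT. Its log2 fold change was -1.44 ± 0.54 in the authors' deposited table, adjusted p = 0.162 in the authors' DESeq2 test (unadjusted p = 0.00708). Tnfrsf13c, which encodes the BAFF receptor of mature B cells, had fitted levels of 358 normalized reads in Yeti and 427 in WT, and a log2 fold change of -0.25 ± 0.67 in the authors' deposited table. In the list of 7 marker genes for B and plasma cells, all 7 had negative fold changes and 2, Jchain and Mzb1, were called lower in the authors' deposited table. Their summed fitted level was 14136.9 normalized reads in Yeti and 43438.6 in WT, and no marker of the list was at 0. The part of these cells in the receptor values was not tested. Tnfsf13b had a positive fold change, unlike the 7 markers but like 8 of 9 macrophage and monocyte markers, with 0 of the 9 called. Fold changes were also positive in 4 of 4 neutrophil and 3 of 5 dendritic cell markers. The same held for 3 of 5 smooth muscle and pericyte markers, 2 of 5 fibroblast markers and 49.8% of all genes tested. The part of any of these cells in the Tnfsf13b value was not tested.

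All 4 receptors for TNF and lymphotoxin had positive fold changes with an unadjusted p under 0.05 in the authors' deposited table, and 0 of 4 passed the adjusted threshold. Tnfrsf1a, which encodes TNF receptor 1, the death-domain receptor found on most cells, is the most abundant member of the superfamily (chromosome 6, 125349362 to 125362484). Tnfrsf1a had fitted levels of 6060 normalized reads in Yeti and 4694 in WT, with a log2 fold change of 0.37 ± 0.13 in the authors' deposited table, adjusted p = 0.107 in the authors' DESeq2 test (unadjusted p = 0.00396). Tnfrsf1b encodes TNF receptor 2, which lacks a death domain and is common on leukocytes and endothelium (chromosome 4, 145213463 to 145246870). Tnfrsf1b had fitted levels of 3501 normalized reads in Yeti and 2114 in WT, and a log2 fold change of 0.73 ± 0.32 in the authors' deposited table, adjusted p = 0.324 in the authors' DESeq2 test (unadjusted p = 0.0210). The coefficient of variation implied by its deposited standard error was 26.7%, against 10.8% for Tnfrsf1a. Ltbr, the lymphotoxin beta receptor of stromal cells, had the narrowest interval of all members. Ltbr had fitted levels of 2408 normalized reads in Yeti and 2048 in WT, a log2 fold change of 0.23 ± 0.09 in the authors' deposited table and an adjusted p of 0.223 in the authors' DESeq2 test (unadjusted p = 0.0118). Tnfrsf14 encodes HVEM, the receptor of LIGHT, and was nearest to the threshold without passing it. Tnfrsf14 had fitted levels of 454 normalized reads in Yeti and 309 in WT, and a log2 fold change of 0.56 ± 0.18 in the authors' deposited table, adjusted p = 0.0543 in the authors' DESeq2 test (unadjusted p = 0.00158).

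The ligands of these receptors had a larger fitted variation between libraries. The coefficients of variation implied by the deposited standard errors were 40.7% to 62.9%, against 7.58% to 26.7% for the receptors. The ligands were also less abundant, with means of 41.7 to 603 normalized reads against 381 to 5377 for the receptors. The part of abundance in this difference was not tested. Tnf, which encodes TNF itself, an early cytokine of macrophages and lymphocytes, had 128, 337 and 456 normalized reads in Yeti A, B and C, against 101, 197 and 107 in WT A, B and C. Yeti B and C were above all WT libraries, but Yeti A was below WT B, so the groups overlapped. The log2 fold change of Tnf was 1.19 ± 0.49 in the authors' deposited table, nearly the same as that of Tnfsf10 but with a larger error, adjusted p = 0.262 in the authors' DESeq2 test (unadjusted p = 0.0151). Beside it, 8 of 9 macrophage and monocyte marker genes had positive fold changes in the authors' deposited table, 4 of them at an unadjusted p under 0.05 and 0 of them called. Their summed fitted level was 17221.5 normalized reads in Yeti and 9603.3 in WT, and the part of these cells in the values of Tnf, Tnfrsf1b and Tnfsf13b was not tested. The rebuilt reads of Marco and Fcgr1, the 2 genes of that list with few enough reads, summed to 125, 279 and 299 in Yeti A, B and C and to 107, 170 and 147 in WT A, B and C. As for Tnf, Yeti A was the lowest Yeti library and WT B the highest WT library of this sum. Both genes were lowest in Yeti A among Yeti libraries. Among WT libraries, Fcgr1 was highest in WT B, at 73.1, but Marco was highest in WT C, at 117. Outside that list, the dendritic cell marker Xcr1 and the genes Relt and Pglyrp1 were likewise lowest in Yeti A and highest in WT B within their groups. The neutrophil marker Ly6g was lowest in Yeti A but highest in WT C. The order seen for Tnf was thus not particular to the macrophage and monocyte markers. Lta, which encodes lymphotoxin alpha, had 11.97, 32.1 and 123 normalized reads in Yeti and 37.7, 39.9 and 22.1 in WT. Yeti C alone stood above the WT range of Lta, and Yeti A stood below it. Ltb, the membrane partner of lymphotoxin alpha, had fitted levels of 522 normalized reads in Yeti and 684 in WT. The log2 fold change of Ltb was -0.39 ± 0.58 in the authors' deposited table, adjusted p = 0.999 in the authors' DESeq2 test. Tnfsf14, which encodes LIGHT, had 20.95, 36.1 and 77.2 normalized reads in Yeti and 34.0, 48.4 and 33.6 in WT, again with the groups overlapping and Yeti C highest.

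**Figure D2:**
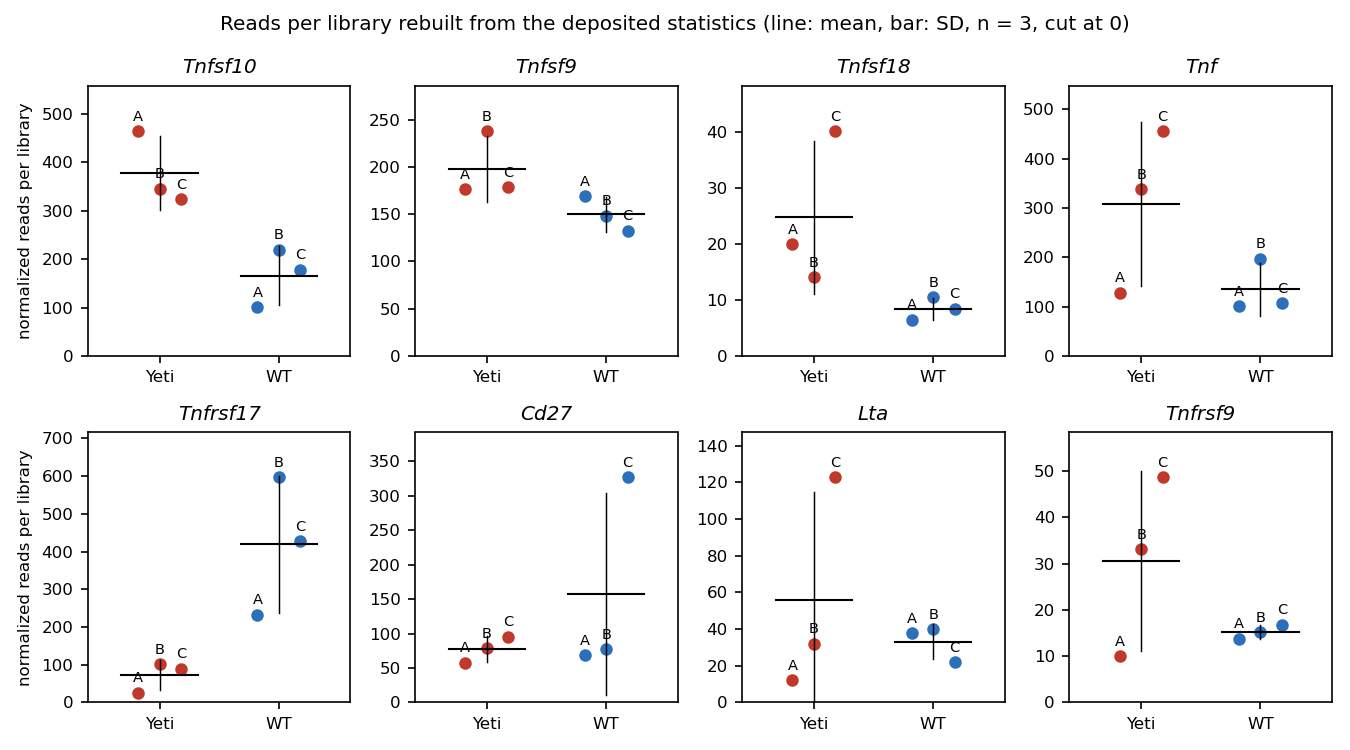
Normalized reads per library (y axis, from 0) of 8 members, rebuilt from the deposited statistics, for Yeti (left, red) and WT (right, blue) libraries A to C; the line is the mean and the bar the SD of 3 libraries, cut at 0. Tnfsf10, Tnfsf9 and Tnfsf18 have all Yeti libraries above all WT libraries and Tnfrsf17 has them below, while 1 library stands apart in Cd27 (WT C) and Lta (Yeti C).

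Among the costimulatory ligands, the groups separated for Tnfsf18 and Tnfsf9 without passing the test. Tnfsf18 encodes GITR ligand, made by antigen-presenting cells and endothelium, and had the largest positive fold change of the members with an adjusted p. Its normalized reads were 19.96, 14.1 and 40.2 in Yeti A, B and C, against 6.44, 10.4 and 8.40 in WT A, B and C. The lowest Yeti library stood just above the highest WT library. The log2 fold change of Tnfsf18 was 1.55 ± 0.60 in the authors' deposited table, adjusted p = 0.199 in the authors' DESeq2 test (unadjusted p = 0.00977). Tnfsf9 encodes 4-1BB ligand, a signal for activated T cells, and had 177, 238 and 179 normalized reads in Yeti and 169, 148 and 132 in WT. Yeti A and WT A differed by less than the spread within either group, and the log2 fold change of Tnfsf9 was 0.40 ± 0.22 in the authors' deposited table, adjusted p = 0.640 in the authors' DESeq2 test. Tnfsf8, the ligand of CD30, had 26.9, 36.1 and 82.5 normalized reads in Yeti and 39.5, 47.5 and 24.2 in WT, with Yeti C again the highest. The 2 low members belong here as well. Tnfsf4, which encodes OX40 ligand, had 0, 7 and 8 whole reads in Yeti and 2, 4 and 4 in WT. Cd70, the ligand of CD27, had 0, 1 and 5 whole reads in Yeti and 1, 0 and 0 in WT, too few for a fold change.

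None of the 6 costimulatory receptors was called. Cd40, the receptor through which T cells activate B cells, dendritic cells and some stromal cells, was the most abundant of them. The fitted levels of Cd40 were 1256 normalized reads in Yeti and 1198 in WT, and its log2 fold change was 0.07 ± 0.23, with a 95% interval of -0.38 to 0.51, in the authors' deposited table. Cd27, a receptor of T cells and memory B cells, had 57.9, 78.3 and 95.2 normalized reads in Yeti A, B and C, against 68.9, 76.9 and 327 in WT A, B and C. WT C alone set the WT mean apart, and WT A and B lay within the Yeti range. The log2 fold change of Cd27 was -1.03 ± 0.61 in the authors' deposited table, adjusted p = 0.712 in the authors' DESeq2 test. The 7 T and NK cell markers with rebuilt reads summed to 548, 592 and 1033 normalized reads in Yeti and 542, 644 and 1955 in WT. Cd3e, Cd3d, Cd3g and Trac were highest in WT C. Among WT libraries, however, Klrb1c and Ncr1 were lowest in WT C, and Nkg7 was highest in WT B. Of the full list of 9 T and NK cell markers, 8 had an adjusted p, 7 of them with negative fold changes and 0 called in the authors' deposited table. The part of T cells in the Cd27 value was not tested. Tnfrsf9, the receptor of 4-1BB ligand and a gene of activated lymphocytes, had 9.98, 33.1 and 48.6 normalized reads in Yeti and 13.8, 15.2 and 16.8 in WT. Yeti B and C were above the WT libraries and Yeti A below them, with a log2 fold change of 1.002 ± 0.613 in the authors' deposited table. Tnfrsf8 (CD30) had 15.96, 78.3 and 95.2 normalized reads in Yeti and 74.5, 96.9 and 54.6 in WT, Yeti A being the lowest. Tnfrsf4 (OX40) and Tnfrsf18 (GITR) are receptor genes of regulatory T cells, and neither passed the test. Tnfrsf4 had 67.8, 61.3 and 77.2 normalized reads in Yeti and 62.5, 63.6 and 50.4 in WT. Tnfrsf18 had a log2 fold change of 0.02 ± 0.28 in the authors' deposited table, with a 95% interval of -0.53 to 0.57.

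The members known from tissue repair, bone and skin appendages did not pass the test either. Tnfrsf19 (TROY), a receptor of progenitor and mesenchymal cells, was among the 4 highest receptors per kilobase of exon in both groups. Its fitted levels were 3848 normalized reads in Yeti and 4917 in WT, and its log2 fold change was -0.35 ± 0.36 in the authors' deposited table, adjusted p = 0.999 in the authors' DESeq2 test. Tnfsf12 (TWEAK) and its receptor Tnfrsf12a (Fn14), which act in tissue injury, were both well expressed. The fitted levels of Tnfsf12 were 812 normalized reads in Yeti and 753 in WT, and its log2 fold change was 0.11 ± 0.18 in the authors' deposited table, adjusted p = 0.999 in the authors' DESeq2 test. Tnfrsf12a had fitted levels of 1162 normalized reads in Yeti and 973 in WT, and a log2 fold change of 0.26 ± 0.24 in the authors' deposited table. Eda2r, the ectodysplasin A2 receptor and a known p53 target, had fitted levels of 430 normalized reads in Yeti and 381 in WT, and a log2 fold change of 0.18 ± 0.22 in the authors' deposited table. The bone-resorption trio, a ligand with its receptor and decoy, was not called. Tnfsf11 (RANKL) had 2.99, 13.1 and 25.4 normalized reads in Yeti and 5.52, 11.4 and 42.0 in WT, with the C library highest in each group. Its receptor gene Tnfrsf11a (RANK) had 155, 158 and 107 normalized reads in Yeti and 141, 106 and 94.5 in WT. Tnfrsf11b, which encodes osteoprotegerin, the soluble decoy of RANKL, had 63.9, 34.1 and 21.2 normalized reads in Yeti and 138, 38.0 and 47.3 in WT, the A library being the highest in each group. The log2 fold change of Tnfrsf11b was -0.91 ± 0.62 in the authors' deposited table, adjusted p = 0.833 in the authors' DESeq2 test.

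The remaining decoys, Tnfrsf22, Tnfrsf23 and Tnfrsf26, are mouse genes next to each other on chromosome 7, between 143607659 and 143685872. Tnfrsf22 and Tnfrsf23 encode receptors that bind TRAIL without a death domain. Tnfrsf22 had 69.8, 66.3 and 96.2 normalized reads in Yeti and 85.5, 104 and 93.5 in WT. Tnfrsf23 had 60.9, 103 and 112 normalized reads in Yeti and 68.9, 71.2 and 76.7 in WT. Tnfrsf26 had 38.9, 78.3 and 92.0 normalized reads in Yeti and 70.8, 109 and 92.4 in WT. The groups overlapped in all 3 genes, and since these genes are close copies of each other, reads may have been divided among them by the counting.

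Per kilobase of exon, a rough measure for comparing levels between genes, a few members held most of the expression. The length takes in every annotated exon of a gene, 6.87 kb for Tnfsf13b and 0.815 kb for Tnfrsf17, so places depend on the annotation. The highest fitted ligand levels in Yeti were 710 normalized reads per kilobase for Tnfsf13b, 536 for Tnfsf12 and 344 for Ltb. In WT the same 3 ligands led, with 456 for Tnfsf13b, 497 for Tnfsf12 and 452 for Ltb, so that Tnfsf13b took the first place in Yeti and Tnfsf12 in WT. Tnfsf13b, Tnfsf12 and Ltb lie so close in WT that their order there is not beyond their spread. Tnfsf10 stood at 71.8 normalized reads per kilobase in Yeti and 31.5 in WT, which is place 6 among 17 ligands in Yeti and place 7 in WT. Among receptors, Tnfrsf1a led in both groups, with 2339 normalized reads per kilobase in Yeti and 1812 in WT. It was followed in Yeti by Ltbr at 1023, Tnfrsf1b at 917 and Tnfrsf19 at 812, and in WT by Tnfrsf19 at 1038, Ltbr at 870 and Tnfrsf1b at 554. Tnfrsf17 held place 11 among the 25 receptors in Yeti, at 88.4 normalized reads per kilobase, and place 5 in WT, at 514. The lowest receptor in both groups was Tnfrsf9, at 11.2 normalized reads per kilobase in Yeti and 5.61 in WT. Cd70 and Tnfsf4 were the lowest ligands in both groups.

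**Figure D3:**
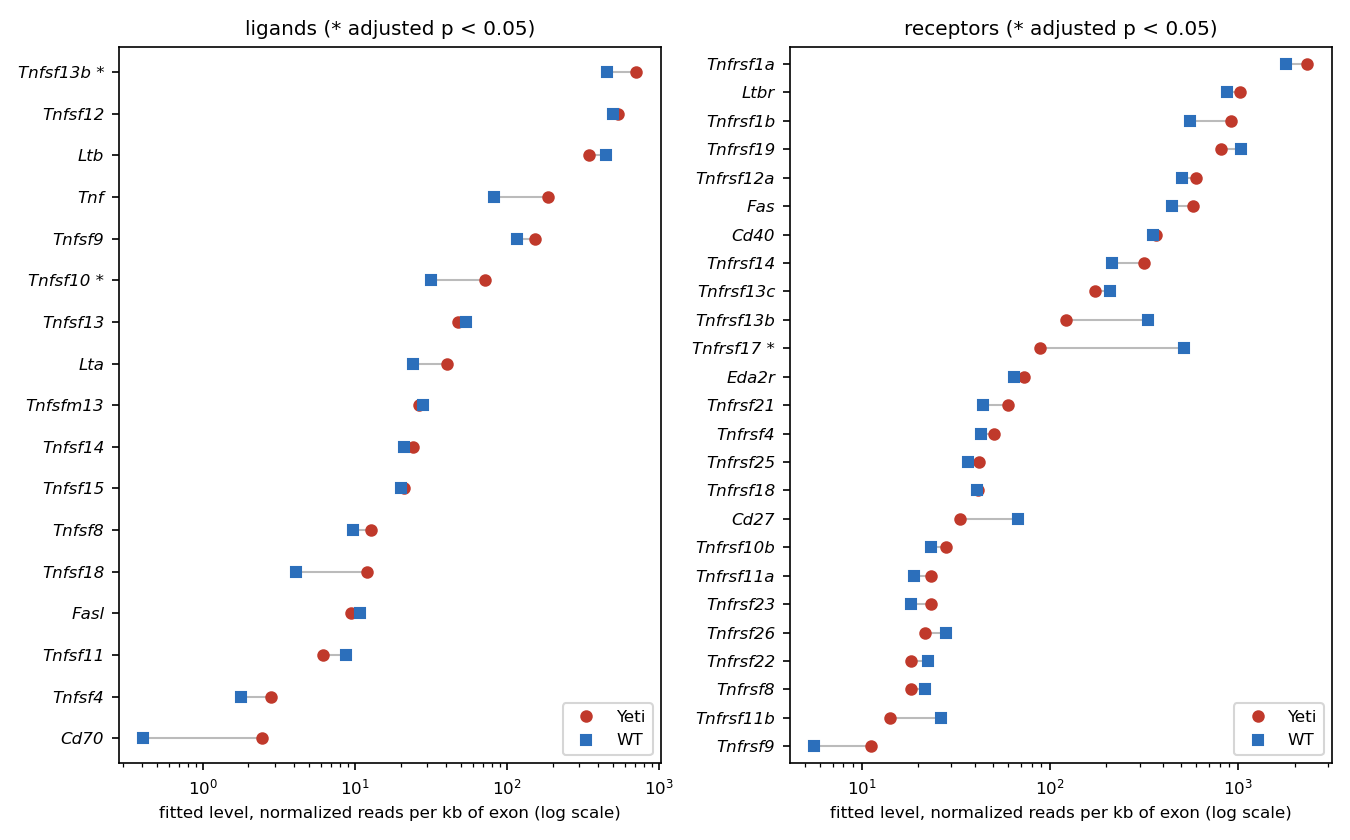
Fitted levels of the ligand genes (left) and receptor genes (right) in normalized reads per kilobase of exon on a log axis, for Yeti (red circles) and WT (blue squares), ordered by the Yeti level. Tnfrsf17 shows the widest gap among the receptors, 88.4 in Yeti against 514 in WT, and Tnfrsf1a leads in both groups.

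The library that stood high was often the same one across members. Of the 29 members with rebuilt reads, Yeti C was the highest Yeti library in 19, Yeti A in 6 and Yeti B in 4. Yeti A was the lowest Yeti library in 17, Yeti B in 8 and Yeti C in 4. In the WT group WT B was the highest in 12, WT C in 9 and WT A in 8 of the 29 members. WT A was the lowest WT library in 14, WT C in 9 and WT B in 6. The same counts were not made over other genes, so this order cannot be called particular to the members. Tnfsf10 went against the Yeti pattern, since Yeti A was its highest library. Markers of leukocytes varied between the same libraries, as the sums for T and NK cells and for macrophages given above show, and their part in the order of the libraries was not tested. The pan-leukocyte gene Ptprc, which encodes the CD45 protein used to exclude cells in the sort, had fitted levels of 281 normalized reads per kilobase in Yeti and 251 in WT. Other leukocyte markers were higher per kilobase, Coro1a at 1949 in Yeti and 1988 in WT and Laptm5 at 1551 and 1067. That difference follows the exon length used, 18.3 kb for Ptprc against 2.78 kb for Coro1a and 3.79 kb for Laptm5. Before division by length, fitted levels in Yeti were close, at 5146 normalized reads for Ptprc, 5424 for Coro1a and 5874 for Laptm5. In WT they were 4597, 5533 and 4042. Lyz2, a macrophage and monocyte marker, was at 7398 in Yeti and 4772 in WT, and Jchain at 2879 and 11378. The fibroblast gene Col1a1 stood above all of these, at 24205 normalized reads per kilobase in Yeti and 19896 in WT. In the authors' deposited table, 0 of 5 fibroblast markers were called. Of 10 endothelial markers, 2 of 5 blood and 4 of 5 lymphatic ones were called lower in the authors' deposited table. Over all genes tested, 0.994% were called lower. The summed fitted levels of the blood endothelial markers were 3424.62 normalized reads in Yeti and 4582.48 in WT. Those of the lymphatic markers were 2681.33 in Yeti and 3872.19 in WT. Pecam1, the blood marker with a positive log2 fold change (0.25 ± 0.46, not called), made up 1391 of the blood sum in Yeti and 1167 in WT. Pdpn, the lymphatic marker that was not called, made up 2241 of the lymphatic sum in Yeti and 1741 in WT, and the other 4, Prox1, Lyve1, Flt4 and Mmrn1, had log2 fold changes of -2.91 to -1.58 in the authors' deposited table. The part of endothelial cells in the values of Tnfsf10, Tnfsf15, Tnfsf18 and Tnfrsf1b, which these cells can carry, was not tested.

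**Figure D4:**
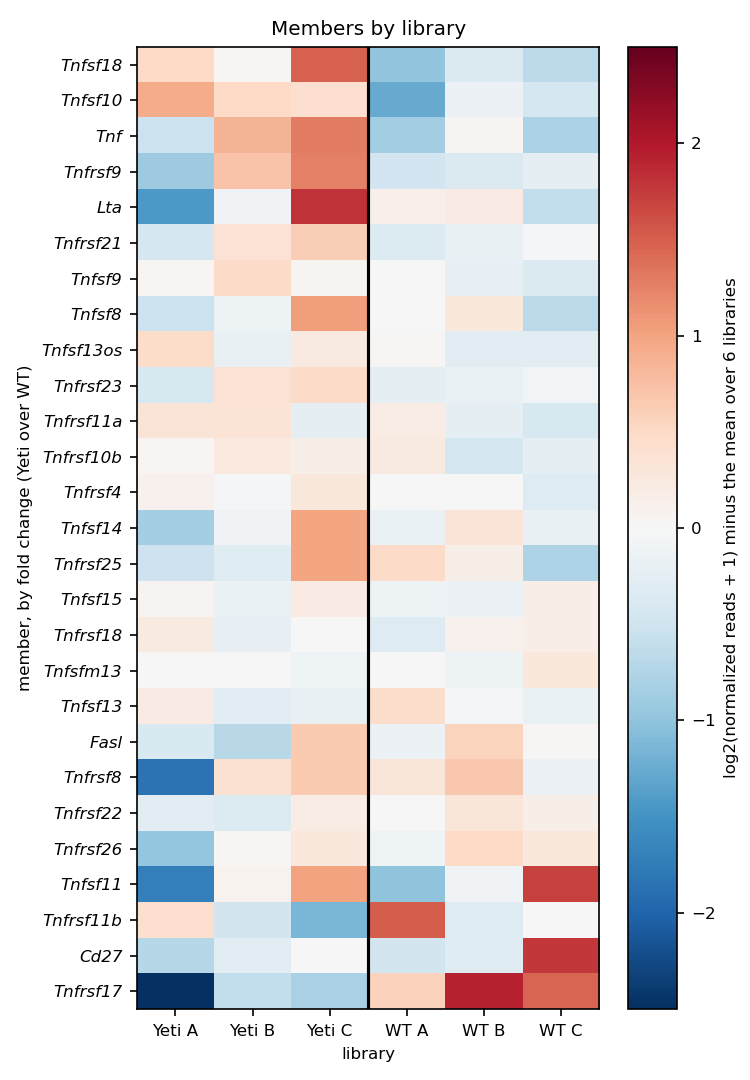
Each cell is log2(normalized reads + 1) in a library minus the mean of the 6 libraries (colour), for the 27 members with rebuilt reads and a mean of at least 10, ordered from the highest to the lowest fold change (Yeti over WT). Yeti C is red for most genes of the upper part, Yeti A is blue for many of the same genes, and Tnfrsf17 at the bottom splits the groups.

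Inside the cell, the genes through which these receptors signal had mostly positive fold changes, and 2 were called. Of 53 genes of adaptors, kinases, ubiquitin enzymes, NF-kappa B subunits, inhibitors and sheddases, 2 were higher and 0 lower in the authors' deposited table, 3.77% beside 2.84% of all genes tested. Fold changes were positive in 45 and negative in 8 of the 53, with a median of 0.14 on the log2 scale. The 11 genes at an unadjusted p under 0.05 in the authors' DESeq2 test were all positive. Over all genes tested, 49.8% had positive fold changes and 9.28% had such a p in either direction. Mlkl, the executioner of necroptosis, rose by 1.46 ± 0.20 log2 units in the authors' deposited table, at an adjusted p of 3.24e-11 in the authors' DESeq2 test. Its fitted levels were 525 normalized reads in Yeti and 191 in WT. Tnfaip3, which encodes A20, a feedback inhibitor of NF-kappa B, had fitted levels of 14629 normalized reads in Yeti and 4769 in WT. Tnfaip3 rose by 1.62 ± 0.50 log2 units in the authors' deposited table, at an adjusted p of 0.0461 in the authors' DESeq2 test, and lost the call when p-values were adjusted over every gene with a p. Nfkbia, the inhibitor I kappa B alpha and the gene of highest mean on the list, had a log2 fold change of 1.004 ± 0.366 in the authors' deposited table, adjusted p = 0.147 in the authors' DESeq2 test. Of the adaptors and kinases next to the receptors, Tradd, Fadd, Traf2 and Ripk1 had log2 fold changes between 0.02 and 0.30 in the authors' deposited table. Others lay outside that range, with 1.32 for Traf1, 0.78 for Ripk3 and -0.14 for Traf6. None of these genes was called, and Traf1 had an adjusted p of 0.0596 in the authors' DESeq2 test.

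**Figure D5:**
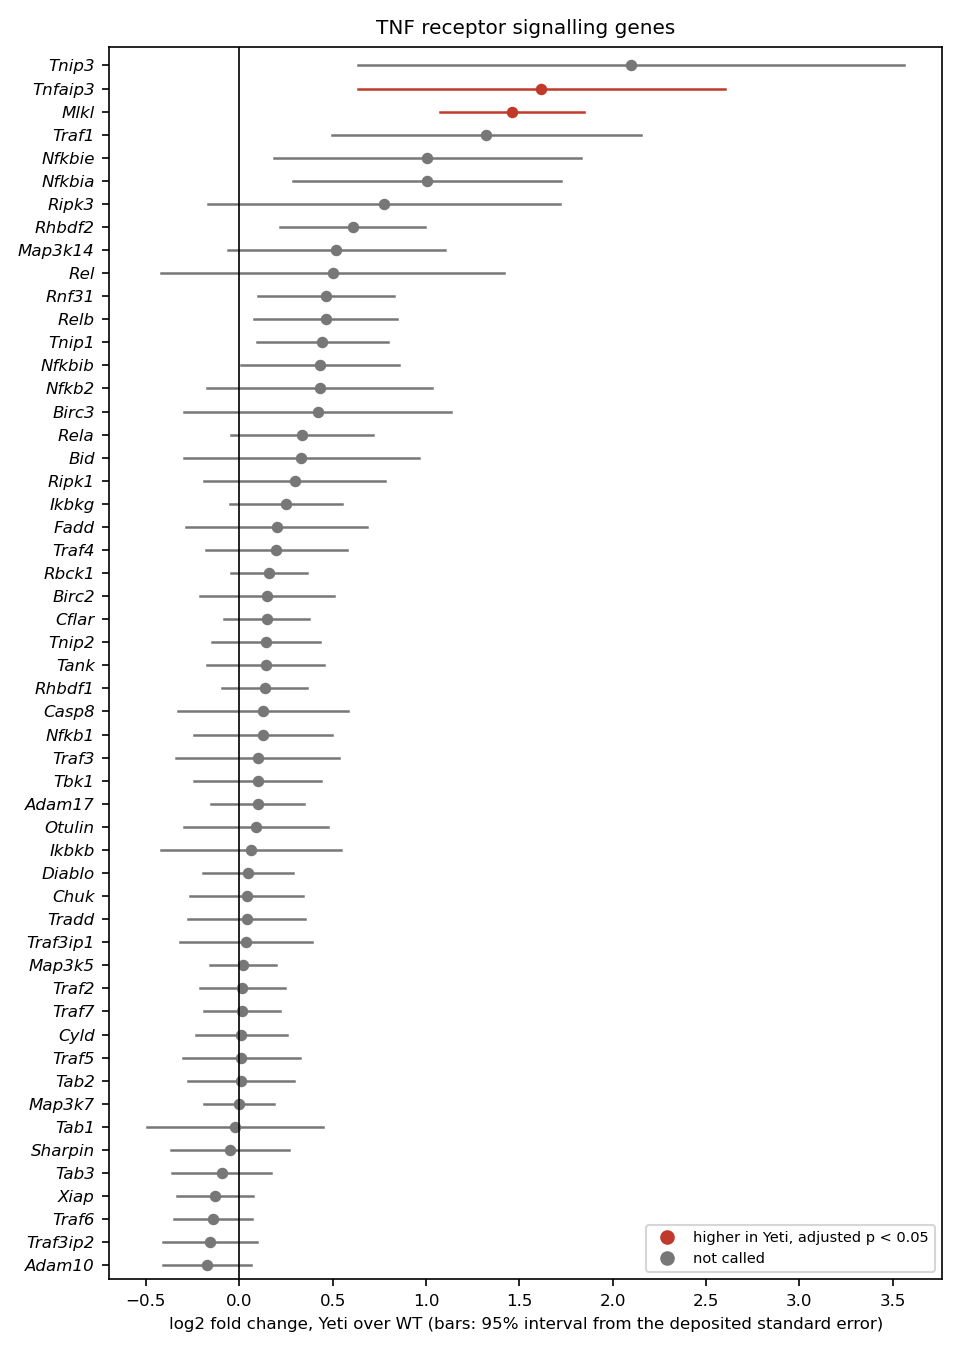
Log2 fold change, Yeti over WT, of the 53 TNF receptor signalling genes from the authors' deposited table (x axis), ordered from high to low; bars are 95% intervals from the deposited standard error. Mlkl and Tnfaip3 are the 2 called genes, and 45 of 53 points lie right of 0.

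Because Fas, Tnfrsf10b and Eda2r are textbook targets of p53, other targets were set beside them. Of 24 p53 target genes with an adjusted p, 1 was higher and 1 lower in the authors' deposited table, 8.33% beside 2.84% of all genes tested. Fold changes were positive in 18 and negative in 6 of the 24, with a median of 0.21 on the log2 scale, beside 49.8% positive over all genes tested. Btg2, an antiproliferative gene and the one of highest mean on the list, rose by 0.64 ± 0.17 log2 units in the authors' deposited table, at an adjusted p of 0.00746 in the authors' DESeq2 test. Trp53inp1, a gene of stress and autophagy, fell by 1.17 ± 0.24 log2 units in the authors' deposited table, at an adjusted p of 7.82e-05 in the authors' DESeq2 test. The 3 superfamily targets, with log2 fold changes of 0.36 for Fas, 0.27 for Tnfrsf10b and 0.18 for Eda2r in the authors' deposited table, lie on both sides of the list's median.

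Relatives that the choice by symbol leaves out added no called gene. None of the 8 genes Cd40lg, Eda, Edar, Ngfr, Relt, Edaradd, Tnfaip8 and Pglyrp1 was called in the authors' deposited table, 0 of them at an unadjusted p under 0.05. Cd40lg, the ligand of CD40 on T cells, had 10.98, 9.04 and 61.3 normalized reads in Yeti and 12.9, 19.9 and 14.7 in WT, with Yeti C standing apart as for Lta. Tnfaip8, the gene of highest mean among them, had fitted levels of 672 normalized reads in Yeti and 609 in WT.

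Many members are neighbours in the genome, and 9 groups of 2 to 4 members lie within 200 kb of each other. Ltb, Tnf and Lta share chromosome 17 between 35194439 and 35205351, and their log2 fold changes were -0.39 ± 0.58, 1.19 ± 0.49 and 0.74 ± 0.76 in the authors' deposited table. Cd27, Ltbr and Tnfrsf1a share chromosome 6 between 125232622 and 125362484, with log2 fold changes of -1.03 ± 0.61, 0.23 ± 0.09 and 0.37 ± 0.13 in the authors' deposited table. Tnfsf9, Cd70 and Tnfsf14 share chromosome 17 between 57105325 and 57194177, and Tnfsf4 and Tnfsf18 share chromosome 1 between 161395409 and 161505290. None of the 3 called members lies in such a group.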

How the data were processed

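Bulk RNA-seq covered 6 libraries of sorted lung mesenchymal cells, 3 Yeti and 3 WT, grouped by the sample titles. The submitters' processing notes name FastQC, STAR and DESeq, with no versions, and GRCm38 and mm10, names of 1 assembly. Counting software, strandedness and gene annotation: not given in the sources used here, which leaves overlapping genes uncertain. The file is a single table of the authors' comparison, with 0 columns of values per sample. Its mean is a signal, a count scaled by a size factor for each library and averaged over the libraries, per the file headers. The log2 fold change and its log2 standard error, the Wald statistic (a score), the p-value and the adjusted p-value come, per the file headers, from the authors' DESeq2 run, and the direction, Yeti over WT, is that of the table's name. Adjusted p-values recomputed by the Benjamini-Hochberg method differed from the deposited ones by at most 3.91e-06. A p-value stood beside 29308 of the 29322 genes and an adjusted p beside 20212, down to a mean of 4.57 in the deposited table.

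The members, gene lists and tests were chosen with earlier results of these data known. The design allowed for a count test, which needs counts per library, so the authors' test was used. Named in full were members called, members at an unadjusted p under 0.05, the 3 ligands and receptors of highest mean, and, from each list, called genes and the one of highest mean; other genes were named after their values were seen. Levels per kilobase use the exons of GENCODE M21 on GRCm38, which matched 29185 gene identifiers and all 43 members. Exons of all annotated transcripts of a gene were merged. A further promoter motif of the design is not reported here.

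Size factors were solved from the 21 lowest distinct means, which are sums of pairs of 6 numbers, and refined over 1082 distinct means, all explained by whole reads. The sign of the deposited fold change of genes with reads in 1 library gave each library's group. For each gene, all sets of 6 whole-read counts were searched whose mean, log2 fold change and standard error under a negative binomial fit equal the deposited values within 1e-09, and reads were kept where exactly 1 set existed. Of 786 genes searched across the table with means of 10 to 280, 771 had exactly 1. On simulated data, 190 of 191 genes were recovered by a single set and 0 by a wrong one. The search was planned for low members and extended to others after the data were seen. Computing used Python 3.11.15, numpy 2.4.6, pandas 2.3.3, scipy 1.17.1, numba 0.67.0 and matplotlib 3.10.9. Alternatives were other sets of genes for the adjustment, thresholds of 0.01 and 0.1, a minimum of 2-fold, recentred fold changes, other definitions of the family and, added after the data were seen, leaving out each library for single members.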

Additional observations from a re-analysis of the deposited data

How the results depend on the processing

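The count of called members was 3 and ranged from 2 to 4 over the alternatives. Tnfrsf14 passed when p-values were adjusted over genes with a mean of at least 10 (adjusted p = 0.0493) and at a threshold of 0.1, Tnfsf10 was lost at a threshold of 0.01 and Tnfsf13b at a minimum of 2-fold; the authors' DESeq2 test underlies all of these. Tnfrsf17 was called under each of them. Of the signalling genes, 1 was called with adjustment over every gene with a p-value and 1 at a threshold of 0.01, where Tnfaip3 was lost, and 4 at a threshold of 0.1. Of the p53 targets, 1 was called at a minimum of 2-fold. Over all genes, 574 were called and 372 at a threshold of 0.01. Leaving out each library in turn, with the dispersion and size factors held, gave log2 fold changes of 0.93 to 1.44 for Tnfsf10, -2.87 to -2.14 for Tnfrsf17, 0.78 to 1.56 for Tnf and 1.01 to 1.83 for Tnfsf18. Tnfsf10 passed the limit in 4 of 6 such fits and Tnfrsf17 in 6 of 6. The same fits over all genes, another count model and the abundant members could not be had, as reads are rebuilt only for genes with few reads. No paired analysis was possible because the table holds no values per library and the replicate numbers of the rebuilt libraries are unknown. Cd70, Tnfsf4 and Tnfsf11 have few reads, and their intervals hold both 0 and a change of the size seen for Tnfsf10.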
